A study of Rattus norvegicus with 7 samples.

Results

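Clones for 4 extracellular matrix genes, out of 6240 features on a rat cDNA microarray, were followed after cerebral cortical contusion. They are collagen I alpha 1 (RGIAN74), collagen III alpha 1 (RGIAM23), fibronectin (RGIAQ36) and a clone listed as similar to fibulin 2 (RGIAN11). They were chosen by clone name for their place in scar matrix, and the question was in which order they rose. The study itself had listed all 4 clones as regulated on these same arrays, so neither their direction nor their calls are independent evidence. Fibulin 2 was raised on each of the 3 arrays of 1 day post injury (dpi) and on each of the 3 arrays of 4 dpi that measured it. Fibronectin, collagen III and collagen I were called only at 4 dpi, where collagen I had the lowest ratio on every array.

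Male Sprague Dawley rats received a contusion by weight drop onto the exposed dura over 1 hemisphere. Total RNA of the ipsilateral cortex, holding the impact area and the cortex around it, was hybridised against RNA of the contralateral, uninjured cortex. Each array held both sides of 1 animal, and 3 arrays were made at 1 dpi and 4 at 4 dpi. Both groups thus share strain, sex, craniotomy and contusion, and they differ in survival time. Sham operated brains were not analysed here, so the craniotomy and the contusion cannot be told apart. The ipsilateral RNA carried Cy5 on most arrays and Cy3 on replicate 3 of 1 dpi and replicates 1 and 4 of 4 dpi. Each value is a log2 ratio of injured over uninjured cortex: 1 stands for a doubling and 0 for no difference between the sides. A ratio does not give the level on either side, and in whole tissue fewer cells of a type and less RNA per cell cannot be told apart.

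The arrays held a value for 2332 to 5208 features each. Over the 2190 features present on every array, the mean correlation of an array with the others of its day, taken across genes, ran from 0.56 to 0.74, lowest for replicate 3 of 4 dpi, which also held the fewest values. All 4 clones had a value on every array except fibulin 2 on that replicate. Replicate 1 of 4 dpi lay low for several injury genes outside the 4 clones, among them TIMP-1, and values without it are given beside several of the results.

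Collagen I and collagen III are fibrillar collagens. They form the fibres of skin, vessel wall, meninges and scar, and the healthy brain parenchyma holds little of either. Fibronectin is an adhesive glycoprotein of plasma and of early wound matrix that binds cells through integrins and on which collagen fibrils assemble. Fibulin 2 is a secreted glycoprotein of basement membranes and elastic fibres that binds fibronectin and other matrix proteins. After a penetrating or contusive brain injury, meningeal and perivascular fibroblasts and the cells of new vessels are known sources of such matrix, and astrocytes wall it off.

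In the RefSeq annotation of the GRCr8 assembly, Col1a1 lies at chr10:80380458-80397461, Col3a1 at chr9:54866646-54902578, Fn1 at chr9:80645507-80714200 and Fbln2 at chr4:125261464-125321030. Clones were tied to these genes by the listed name only. A promoter window of 300 bases around the gene start was at hand for 1 of the 4 genes, Fbln2, the gene whose clone was raised on both days. It is printed with that of Sparc, which encodes osteonectin, the clone whose values lay nearest to those of collagen I. Both are 5′ to 3′ on the gene's strand, from RefSeq, with GC boxes (GGGCGG or CCGCCC) in capitals. They lie at chr4:125261409-125261708 (plus strand) and chr10:40038767-40039066 (minus strand).
Fbln2: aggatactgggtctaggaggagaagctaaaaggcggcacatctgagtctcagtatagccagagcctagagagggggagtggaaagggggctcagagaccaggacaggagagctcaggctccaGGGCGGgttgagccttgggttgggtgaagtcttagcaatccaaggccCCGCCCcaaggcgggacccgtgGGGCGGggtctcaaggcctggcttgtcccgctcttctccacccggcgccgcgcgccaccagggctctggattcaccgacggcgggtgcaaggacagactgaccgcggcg
Sparc: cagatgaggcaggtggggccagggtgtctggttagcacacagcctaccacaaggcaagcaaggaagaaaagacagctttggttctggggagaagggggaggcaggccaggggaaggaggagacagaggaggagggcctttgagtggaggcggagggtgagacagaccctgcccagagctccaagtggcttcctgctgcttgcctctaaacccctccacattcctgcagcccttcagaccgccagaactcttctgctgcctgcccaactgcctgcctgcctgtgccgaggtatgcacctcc

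The Fbln2 window held 3 GC boxes and the Sparc window none. Of the 33469 rat promoter windows in the table, 33.1% held at least 1 GC box. Most of the Fbln2 window lies inside the annotated span of the gene. The other motifs were searched on both strands too and were in neither window. A TATA box (TATAAA) was in 14.2% of all windows. A CCAAT box was in 37.5%. An AP-1 element (TGAGTCA) was in 4.63%. A match or its absence is a description of letters and says nothing of a factor.

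Fibulin 2 was the one clone of the 4 called at 1 dpi. There its log2 ratio was 1.75, 1.78 and 3.17 on replicates 1, 2 and 3. At 4 dpi it was 1.96, 1.50 and 1.93 on replicates 1, 2 and 4. The 2 days overlapped, no array lay below 1.50, and replicate 3 of 1 dpi was the highest of all.

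The mean of fibulin 2 at 1 dpi was 2.23 ± 0.81 (SD, n = 3), a 4.70-fold ratio of the injured to the uninjured side. limma's moderated test against 0 gave an adjusted p of 0.000207, and the clone ranked 13 from the top of the 4952 features tested. At 4 dpi the mean was 1.80 ± 0.26 (SD, n = 3), 3.48-fold, with an adjusted p of 0.00013 and rank 8 of 3191. Fibulin 2 was thus called higher at both times, as were 30 features in all that were not called in the difference between days.

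A feature was called at 1 time when its adjusted p was at most 0.02 and its mean log2 ratio lay beyond 0.7. Over all features, 3.9% were called higher at 1 dpi and 1.51% lower, and 2.63% were called higher at 4 dpi and 0.376% lower. Of the 4 matrix clones, 1 was called higher at 1 dpi and all 4 at 4 dpi, and none was called lower. At 4 dpi each of the 4 clones was called higher and also exceeded 0.7 on every array that measured it, which held for 1.1% of all features tested there. At 1 dpi fibulin 2 alone of the 4 was called and exceeded 0.7 on every array, as did 2.26% of all features. The study's list used like limits on these same arrays. These counts thus follow largely from the choice of clones and are no evidence of enrichment.

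Fibronectin rose from the first to the second time. Its log2 ratio was 0.63, 0.46 and 0.27 on the arrays of 1 dpi, in replicate order. By 4 dpi it reached 1.00, 1.67, 2.23 and 2.14. All 7 arrays lay above 0, the days did not overlap, and replicate 1 was the lowest of 4 dpi.

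The mean of fibronectin at 1 dpi was 0.45 ± 0.18 (SD, n = 3), with an adjusted p of 0.0371 from limma, short of both limits. At 4 dpi the mean of 1.76 ± 0.56 (SD, n = 4), 3.39-fold, had an adjusted p of 0.000479 and ranked 11 of 3191. The difference between days was 1.31 ± 0.25 (SE), adjusted p = 0.0111 (limma), the 10th highest of 3188 features. The exact permutation test over the 35 splits of the arrays, two-sided, gave p = 0.0571, where 0.0286 is the smallest it can give. Without replicate 2 of 1 dpi the difference of 1.31 had an adjusted p of 0.0530 and lost its call.

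Collagen III took both signs at 1 dpi. Its log2 ratio was -0.30 and -0.65 on replicates 1 and 2 and 0.82 on replicate 3. At 4 dpi it was 1.20, 1.18, 0.83 and 1.10. The days did not overlap, by 0.01 between replicate 3 of 1 dpi and replicate 3 of 4 dpi, and the former was the one array of 1 dpi with ipsilateral RNA in Cy3.

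The mean of collagen III at 1 dpi was -0.05 ± 0.77 (SD, n = 3; limma's adjusted p = 0.919). Without replicate 3 it was -0.48, and without replicate 2 it was 0.26, so its sign at 1 dpi was not settled. The mean at 4 dpi was 1.08 ± 0.17 (SD, n = 4), 2.11-fold, adjusted p = 0.000219, rank 38 of 3191. The difference between days was 1.12 ± 0.27 (SE), adjusted p = 0.0355 (limma), and the exact permutation p was 0.0286, the smallest the arrays allow. This call was the least firm of the 3: it was lost without replicate 1 (0.99) or replicate 2 (0.82) of 1 dpi, and without replicate 2 (1.09) or replicate 4 (1.12) of 4 dpi, with adjusted p from 0.0599 to 0.156.

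Collagen I crossed from below 0 to above it. Its log2 ratio at 1 dpi was -0.32, -0.82 and -0.11. The arrays of 4 dpi gave 0.71, 0.79, 0.78 and 0.85, the narrowest range of the 4 clones. Every array of 1 dpi lay below 0 and every array of 4 dpi above, a pattern shared by 89 of the 3188 features tested at both times.

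The mean of collagen I was -0.41 ± 0.37 (SD, n = 3) at 1 dpi, with an adjusted p of 0.0940 from limma, and so was not called lower. At 4 dpi it was 0.78 ± 0.06 (SD, n = 4), 1.72-fold, adjusted p = 0.000581, rank 71 of 3191. This lies just above the limit of 0.7 on the mean. The difference between days was 1.20 ± 0.17 (SE), adjusted p = 0.00258 (limma), rank 18 of 3188. The exact permutation p was 0.0286, the smallest it can give, and the call held with each array left out in turn.

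**Figure D1:**
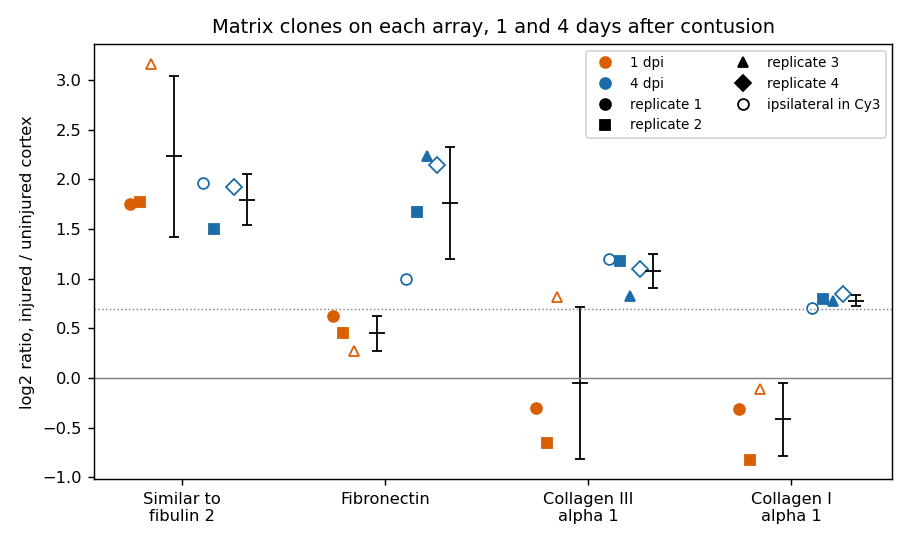
Log2 ratio of injured over uninjured cortex (vertical axis) for each matrix clone on each array, orange for 1 dpi and blue for 4 dpi, with open symbols where the ipsilateral RNA was in Cy3; bars give the mean and SD, and the dotted line the limit of 0.7. Fibulin 2 overlaps between days, while collagen I moves from -0.41 to 0.78 with no overlap.

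Over all features tested at both times, 3.48% were called higher at 4 dpi than at 1 dpi and 1.51% lower, at an adjusted p of 0.05. Fibronectin, collagen III and collagen I were called higher, and fibulin 2 was not. The arrays of 4 dpi lay above those of 1 dpi without overlap for 10.9% of features, these 3 clones among them, and below for 9.07%. Being called higher at 4 dpi, not called at 1 dpi and called in the difference was shared by 24 of 3188 features. Without replicate 1 of 4 dpi the differences were 1.56 for fibronectin, 1.08 for collagen III and 1.22 for collagen I, each still called. For fibulin 2 the difference was -0.43 ± 0.32 (SE), adjusted p = 0.517 (limma), and 0.03 without replicate 3 of 1 dpi. Its exact permutation p was 0.6 over 20 splits, whose smallest is 0.1.

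Within arrays with the ipsilateral RNA in 1 dye, the differences kept their sign. With Cy5 on the ipsilateral side they were 1.41 for fibronectin, 1.48 for collagen III, 1.35 for collagen I and -0.27 for fibulin 2. With Cy3 they were 1.30, 0.33, 0.88 and -1.22 in the same order. The Cy3 values rest on 1 array of 1 dpi, replicate 3, so that animal and its dye cannot be told apart. The Cy5 value of fibulin 2 likewise rests on 1 array of 4 dpi, replicate 2. The 2 values lay closest for fibronectin and farthest apart for collagen III, and the dye's part in this was not tested.

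**Figure D2:**
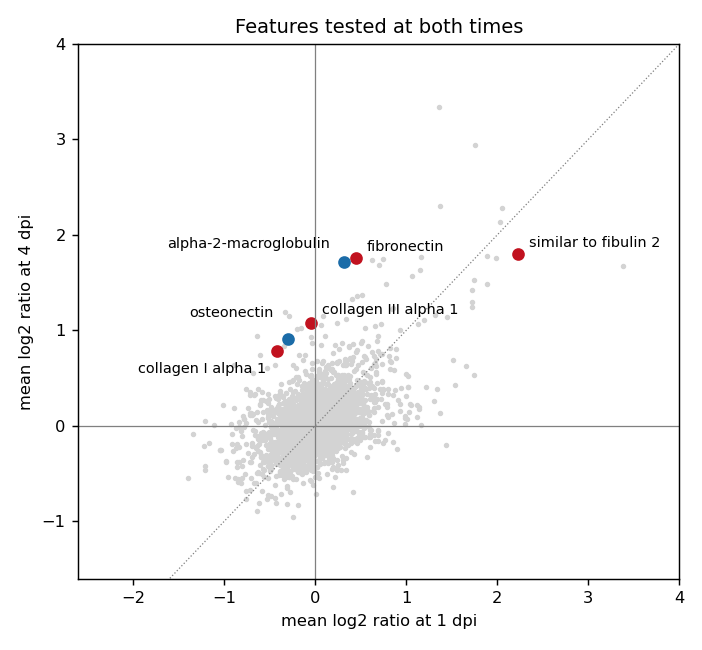
Mean log2 ratio at 1 dpi (horizontal axis) against 4 dpi (vertical axis) for the 3188 features tested at both times in grey, with the matrix clones in red and 2 neighbours in blue; 2 features fall outside the frame. Fibronectin and both collagens lie above the dotted line of equal ratios, and fibulin 2, at 2.23 and 1.80, below it.

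The order of the clones was also read within each array, where all values come from 1 animal. It is an order of differences between the sides, not of levels. At 1 dpi fibulin 2 was highest and collagen I lowest on all 3 arrays. Fibronectin stood above collagen III on replicates 1 and 2 and below it on replicate 3. At 4 dpi collagen I was again lowest on all 4 arrays. Fibronectin was highest on replicates 2, 3 and 4, although fibulin 2 was not measured on replicate 3, and fibulin 2 was highest on replicate 1.

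At 1 dpi fibulin 2 exceeded fibronectin by 1.78 ± 0.97 (SD, n = 3) on the log2 scale, by at least 1.13 on each array. It exceeded collagen III by 2.28 ± 0.19 and collagen I by 2.65 ± 0.60. The next neighbours in the order differed by less than their spread. Fibronectin stood 0.50 ± 0.91 above collagen III, and collagen III 0.37 ± 0.49 above collagen I. Fibronectin and collagen I, which are not neighbours, lay 0.87 ± 0.46 apart, with fibronectin the higher on all 3 arrays.

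At 4 dpi fibulin 2 stood 0.19 ± 0.67 (SD, n = 3) above fibronectin and was the higher of the pair on 1 of 3 arrays. Fibronectin stood 0.68 ± 0.70 (n = 4) above collagen III, higher on 3 of 4 arrays. Collagen III stood 0.30 ± 0.19 above collagen I, higher on all 4 arrays. Of these neighbours, the SD exceeded the mean for the first and the second pair. Fibronectin stood 0.98 ± 0.52 above collagen I, higher on all 4 arrays.

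From 1 to 4 dpi the mean distance from fibulin 2 to the other clones differed by -1.59 for fibronectin, -1.64 for collagen III and -1.63 for collagen I. In each of these 3 pairs no array of 4 dpi reached the distance of any array of 1 dpi. The two-sided exact permutation p was 0.1 in each, the smallest that 20 splits allow, and 0.2 after Benjamini-Hochberg adjustment over the 6 pairs, so the design could not pass 0.05. Among fibronectin and the collagens the distances changed by 0.19 (fibronectin less collagen III), 0.11 (fibronectin less collagen I) and -0.07 (collagen III less collagen I). Their exact permutation p was 0.743, 0.8 and 0.857, each 0.857 after adjustment. The SD of the distance within a day, as the root mean square over the 2 days, was 0.81, 0.49 and 0.37. No order in time among these 3 clones could thus be read from 2 days.

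**Figure D3:**
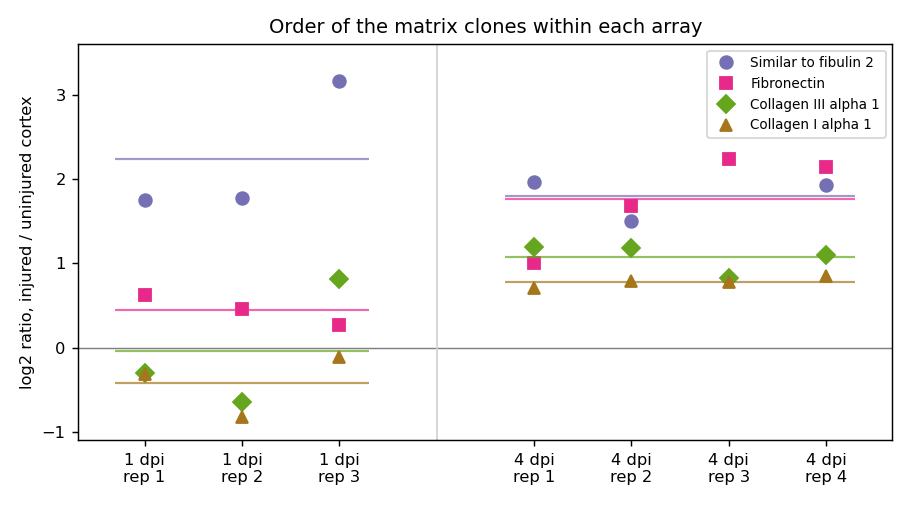
Log2 ratio (vertical axis) of the matrix clones on each of the 7 arrays (horizontal axis), with horizontal lines at the mean of each clone and day. Fibulin 2 stands 1.13 or more above the other clones on the arrays of 1 dpi, and fibronectin reaches or passes it on replicates 2 and 4 of 4 dpi.

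The features nearest to each clone were sought by the root mean square (RMS) difference of log2 ratios over the arrays. Names come from the study's list of regulated clones, so only listed clones could be named. For collagen I the nearest of 2189 features on 7 arrays was osteonectin (RGIAQ88), a collagen-binding matrix protein, at an RMS of 0.27. Osteonectin lay at -0.55, -0.32 and -0.03 at 1 dpi and 1.01, 0.66, 0.93 and 1.06 at 4 dpi, and like collagen I it was below 0 on each array of 1 dpi and above on each of 4 dpi. Collagen III was the 30th nearest to collagen I, at 0.44.

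For collagen III the nearest named clones were preprocathepsin D (RGIAB71), the precursor of a lysosomal protease, at an RMS of 0.38, then osteonectin at 0.42 and collagen I at 0.44. Fibronectin had alpha-2-macroglobulin (RGIAO94), a broad protease inhibitor of plasma, as the nearest of all at 0.23, followed by the complement component C1q C (RGIAJ90) at 0.30 and pancreatic secretory trypsin inhibitor type II (RNABM15) at 0.33. Fibulin 2, over 6 arrays and 2933 features, had melanocyte-specific gene 1 (RGIAG34) nearest at 0.55, with FYN binding protein (RGIAO59) the 4th at 0.69 and S-100 related protein (RNABO14) the 5th at 0.74. Of the other matrix clones, fibronectin was the 51st nearest to fibulin 2 at 1.44, collagen III the 167th at 1.68 and collagen I the 1112th at 2.04.

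Other matrix genes were set beside the 4 clones by fixed lists of 17 clones. Every one of them had been listed as regulated on these same arrays, so the counts describe when they moved. They are no independent evidence of direction or of enrichment. At 1 dpi 13 of 17 were called higher and 1 lower, against 3.9% and 1.51% of all features. At 4 dpi 6 of the 13 tested were called higher and none lower, against 2.63% and 0.376%. Between days 3 of 13 were called higher at 4 dpi and 2 lower, against 3.48% and 1.51% of all features. The count of 2 became 0 if either replicate 1 or replicate 2 of 1 dpi was dropped, and 1 if replicate 4 of 4 dpi was. The median of the mean log2 ratios was 0.99 over the 17 clones tested at 1 dpi and 0.87 over the 13 tested at 4 dpi, which are different sets, against 0.01 and -0.01 over all features tested.

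Among matrix proteins, osteopontin (RNABT23), a secreted adhesive protein of macrophages, had the highest ratios. They were 2.64, 3.32 and 4.44 at 1 dpi and 5.60, 5.26, 6.79 and 5.59 at 4 dpi, with no overlap. Its difference of 2.34 ± 0.40 (SE) had an adjusted p of 0.00775 (limma). Osteonectin was called at 4 dpi only, with a difference of 1.21 ± 0.16 (SE) and an adjusted p of 0.00204 (limma).

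Matrix Gla protein (RGIAK84), an inhibitor of calcification, was called at 1 dpi only, at 0.80 ± 0.16 (SD, n = 3), a call lost without replicate 2 (0.71). At 4 dpi it lay at 0.39 ± 0.63 (n = 4), or 0.67 without replicate 1, where it was not called either. The days overlapped, and the difference of -0.41 was not called (adjusted p = 0.453, limma). Vitronectin (RNABR91), an adhesive plasma and matrix protein that shares receptors with fibronectin, was called lower at 1 dpi at -1.43 and -0.98 on the 2 arrays that measured it. With either array left out it could not be tested. Of these 4 matrix proteins, 2 were called higher and 1 lower at 1 dpi, and 2 higher at 4 dpi.

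Collagen processing enzymes and matrix inducers were called higher at 1 dpi. Prolyl 4-hydroxylase beta (RNABT27), a subunit of the enzyme that hydroxylates collagen chains, lay at 1.03 ± 0.41 (SD, n = 3). Transforming growth factor beta-2 (RNABO15), a cytokine that induces matrix synthesis, lay at 1.06 ± 0.39, and bone morphogenetic protein 2 (RGIAS92) at 0.83 ± 0.13. All 3 were called at 1 dpi, though only transforming growth factor beta-2 exceeded 0.7 on every array. At 4 dpi 2 were tested and neither passed: prolyl 4-hydroxylase beta was 0.52 ± 0.27 (n = 4; adjusted p = 0.0192, limma, short only of the limit of 0.7) and transforming growth factor beta-2 was 0.22 ± 0.39 (n = 3). Bone morphogenetic protein 2 had 0.84 on the 1 array of 4 dpi that measured it. The differences between days of the other two, -0.51 and -0.84, had adjusted p of 0.186 and 0.0650 (limma) and were not called. Without replicate 3 of 4 dpi, which lacks the latter clone, its difference was called at an adjusted p of 0.0489 (limma), as it was with a dye term (-1.05) and with array weights (-0.79).

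All 3 listed cell surface receptors of matrix were called higher at 1 dpi. CD44 (RNABK17), the hyaluronan receptor, lay at 3.05 ± 0.68 (SD, n = 3), and syndecan 1 (RGIAE40), a heparan sulphate proteoglycan that binds fibronectin, at 2.99 ± 0.44. Both had values on only 2 arrays of 4 dpi, 0.10 and 2.42 for CD44 and 1.23 and 1.86 for syndecan 1, and were not tested there. Syndecan 4 (RNABM48), which acts with integrins in adhesion to fibronectin, fell from 0.99 to 0.08, a difference of -0.90 ± 0.22 (SE) with an adjusted p of 0.0342 (limma). That call was lost without replicate 1 (-0.97) or 2 (-0.72) of 1 dpi and without replicate 1 (-0.75) or 4 (-0.85) of 4 dpi.

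Of the genes of matrix turnover, 5 of 7 were called higher at 1 dpi and 4 of 6 at 4 dpi. Tissue inhibitor of metalloproteinases 1 (TIMP-1, RGIAQ65) lay at 3.43, 3.25 and 3.47 at 1 dpi. At 4 dpi it lay at -0.51, 2.31, 2.26 and 2.65 and was not called (adjusted p = 0.0324, limma), though it was with SAM, with a dye term and with both times in 1 fit. Its difference of -1.71 between days was not called (adjusted p = 0.114, limma). Without replicate 1, the one array below 0, the mean of 4 dpi was 2.40 and was called, and the difference of -0.98 between days was called too.

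TIMP-2 (RNABV95) was called at both times, at 0.73 ± 0.38 (SD, n = 3) and 1.07 ± 0.19 (n = 4), although its call at 1 dpi was lost without replicate 2 (0.84) or replicate 3 (0.51). Tissue plasminogen activator (RNABP80), a protease that generates plasmin, fell from 1.54 to 0.43, a difference of -1.11 ± 0.23 (SE) with an adjusted p of 0.0173 (limma), lost with scaled arrays (-0.99) and without replicate 1 (-1.06) or 2 (-1.08) of 1 dpi. Its mean at 4 dpi without replicate 1 was 0.67, not called. Alpha-2-macroglobulin rose from 0.32 to 1.72, a difference of 1.40 ± 0.19 (SE) with an adjusted p of 0.00258 (limma), and kept that call with each array left out. Myelencephalon specific protease (RNABV39) was called at 4 dpi (0.87 ± 0.34, n = 4) and not at 1 dpi (0.51 ± 0.13, n = 3; adjusted p = 0.0201, limma). The days overlapped, and the difference of 0.36 was not called (adjusted p = 0.288, limma). Cathepsin K (RNABQ32), a collagen-degrading protease, was called at 1 dpi on 2 arrays (0.85), a call lost with both times in 1 fit (adjusted p = 0.0248, limma). It had 1.65 and 0.86 on 2 arrays of 4 dpi and was not tested there. Contrapsin-like protease inhibitor related protein (RNABP40) was called at both times, from -0.19 on replicate 1 of 4 dpi to 3.50 on replicate 2. The call at 1 dpi, on 2 arrays, was lost with robust eBayes and with both times in 1 fit (adjusted p = 0.0356 and 0.0796, limma). Its mean at 4 dpi was 2.29, a call lost with robust eBayes (adjusted p = 0.156, limma) and without replicate 2 (1.88), 3 (2.20) or 4 (1.95) and kept without replicate 1 (3.11).

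**Figure D4:**
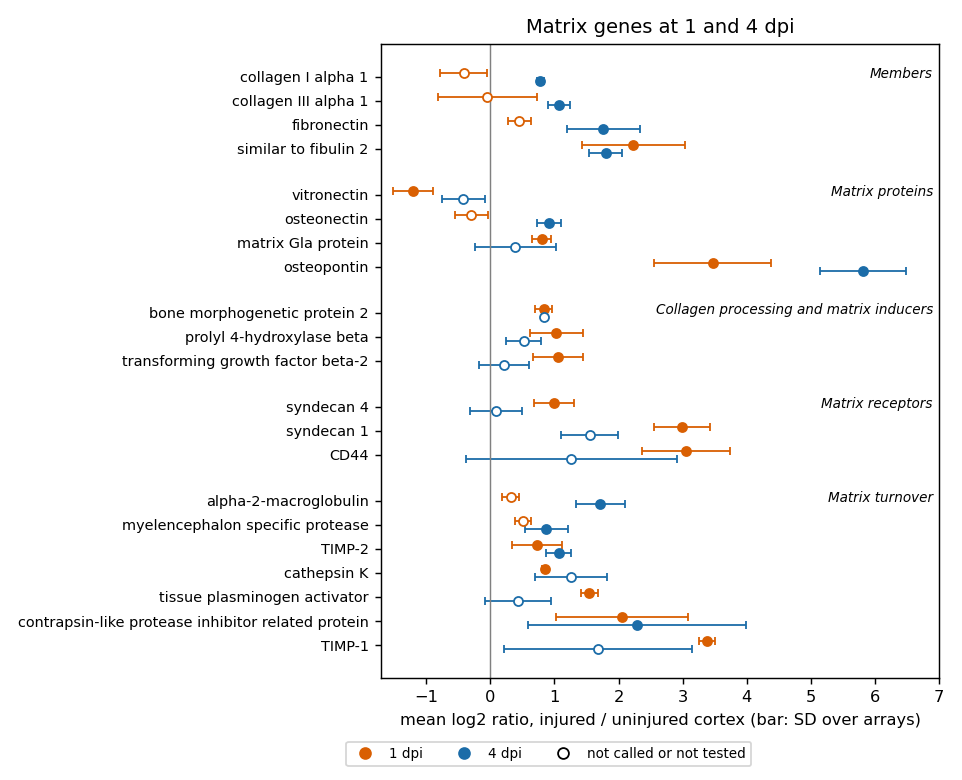
Mean log2 ratio at 1 dpi (orange) and 4 dpi (blue) of the 4 matrix clones and of the 17 clones of the matrix lists, with bars for the SD over arrays and open circles where a clone was not called or not tested. Both collagens, fibronectin and osteonectin are filled only at 4 dpi, whereas the 6 receptors, processing enzymes and inducers are filled at 1 dpi and open at 4 dpi, 3 of them because they were not tested there.

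Clones for other cell types moved on the same arrays. They too were named from the study's list of regulated clones, so counts of them are no independent evidence. Of 5 macrophage and microglia clones (C1q beta, C1q C, class III Fc gamma receptor, macrophage expressed gene 1 and osteoactivin), 4 were called higher at 1 dpi and 5 at 4 dpi. Over all features the shares called higher were 3.9% and 2.63%. At 1 dpi C1q beta lost its call without replicate 2 (0.67). C1q C, at 0.701, lost its call without replicate 3 (0.64) and with arrays centred on the median (0.699). At 4 dpi the receptor, at 1.22, lost its call without replicate 2 (1.12) or replicate 3 (1.05) and had 1.61 without replicate 1. Their mean per array, over the 4 measured throughout, ran from 0.67 to 0.94 at 1 dpi and from 1.19 to 2.12 at 4 dpi. The mean of fibronectin and both collagens ran from -0.34 to 0.33 and from 0.97 to 1.36. The 5 clones set as neuronal were GABA-A receptor delta, Na+K+ transporting ATPase, brain-enriched guanylate kinase-associated protein 1, CDCrel-1A and N-copine. The ATPase's listed name does not tie it to neurons. Of the 5, 2 were called lower at 1 dpi (1 without replicate 1 or 2, when N-copine lost its call). At 4 dpi 3 of 4 were, the ATPase among them (2 without replicate 3). Over all features the shares called lower were 1.51% and 0.376%. The mean over 4 of these clones, with the ATPase, ran from -0.61 to -0.32 and from -1.08 to -0.57. The part of these cells in the matrix values was not tested.

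Clones of mesenchyme, smooth muscle and meninges did not move together. Vimentin (RNABM67), an intermediate filament of mesenchyme and of reactive astrocytes, was called higher at both times, at 1.37 ± 0.49 (SD, n = 3) and 2.31 ± 0.52 (n = 4). Acidic calponin (RGIAN83) was called at 1 dpi. At 4 dpi, at 0.68, it was not called, though it was without replicate 2 (0.77) and with no limit on the ratio. Smooth muscle-associated cell protein 8 (RNABZ09) was called lower at 4 dpi (-0.71 ± 0.15), a call lost without replicate 3 (-0.65). Insulin-like growth factor II (RNABO23), which is made in the adult meninges, was called lower at 1 dpi (-0.76 ± 0.38). That call was lost without replicate 1 (-0.69) or 2 (-0.61) and with a dye term (-0.65). At 4 dpi it lay at -0.68 ± 0.07 and was not called, though it was without replicate 4 (-0.71), with scaled arrays (-0.74) and with no limit on the ratio. Albumin (RGIAJ87), a plasma protein, was called lower at 1 dpi (-1.23 ± 0.36, n = 3). A ratio cannot show whether any of these markers was at or near 0 on either side.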

How the data were processed

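The authors labelled total RNA of both cortices of each rat with Cy3 and Cy5, left out spots under 2 times background, formed injured over uninjured ratios with swapped dyes turned, applied Lowess normalisation (SMA package) and deposited log2 ratios. Scaling between arrays is not given in the sources used here. Spot intensities were not used here, so the number of values per array (2332 to 5208 of 6240) stands for depth, and the number of arrays limits precision.

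Arrays were grouped by time point from their labels, and 0 columns belonged to no sample. Clone names came from the study's list of regulated clones. Of 253 listed clones 238 were used. The fibronectin, osteonectin and TIMP-1 clones share the prefix RGIAQ, under which 8 of 14 listed names were not used, 6 because the deposited values departed from the list and 2 because they share an identifier.

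Features with values on at least 2 arrays of 1 dpi or 3 of 4 dpi were tested against 0, and between times, with limma 3.58.1 (lmFit, eBayes) in R 4.3.3, and p-values were adjusted by Benjamini-Hochberg over all features. Scripts were tested on simulated data. Single values used exact permutation tests over the splits of the arrays. Each animal gave 1 array. Named clones were the 4 matrix clones, all clones of the lists, and the 3 nearest listed clones of each matrix clone. The members and lists were chosen with earlier results of these data known. The alternatives were one-class SAM (written anew, missing values filled from the 10 nearest features), other limits and filters, a dye term, centring, scaling, array weights, the replicate number as a block, swapped arrays turned and each array left out. Plots used matplotlib 3.10.9.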

Additional observations from a re-analysis of the deposited data

Results flagged for a closer look

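In 2 groups of 4 arrays, 1 array lay far from the others. TIMP-1 (RGIAQ65) had -0.51 on replicate 1 of 4 dpi, and class III Fc gamma receptor (RNABC93) had 0.048 on the same array. Chance gives about 1 such array in 20 groups, and 26 groups were examined.

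The response differed between 1 and 4 dpi, by limma's test of the difference, for 3 of the 4 matrix clones: collagen I by 1.20, collagen III by 1.12 and fibronectin by 1.31. Among the matrix lists it was higher at 4 dpi by 1.21 for osteonectin, 2.34 for osteopontin and 1.40 for alpha-2-macroglobulin, and it differed by -0.90 for syndecan 4 and -1.11 for tissue plasminogen activator. Among the markers of other cells it differed by 1.00 for C1q beta, 0.99 for C1q C, 1.97 for osteoactivin and -0.71 for the Na+K+ transporting ATPase. By the same test, the C1q beta difference lost its call without replicate 1 (0.91), 2 (1.08) or 3 (1.02) of 1 dpi and with a dye term (0.98), and without replicate 1 of 1 dpi so did C1q C (0.95) and the ATPase (-0.58). The Fc gamma receptor difference, 0.38, was called without replicate 1 of 4 dpi (0.77).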

How the results depend on the processing

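Apart from turning the sign of the swapped arrays, every alternative kept the calls of the 4 clones at 4 dpi, of fibulin 2 at 1 dpi and of the collagen I difference. Fibulin 2 at 4 dpi had only 3 arrays, so leaving out one that measured it could not be tested. The collagen III mean at 1 dpi was 0.17 with a dye term and ran from -0.48 to 0.26 with each array left out. The collagen III difference was 1.12 with the replicate block (adjusted p = 0.129, limma), was not called at an adjusted p of 0.02 (1.12), and ran from 0.82 to 1.55 with each array left out. The fibronectin difference was 1.18 with the replicate block (adjusted p = 0.0720) and ran from 1.15 to 1.56 with each array left out. Over alternatives other than the turned sign, adjusted p ran from 0.00192 to 0.156 for collagen III and from 0.000305 to 0.0720 for fibronectin. The fibulin 2 difference ran from -0.67 to 0.032 with each array left out. Its adjusted p (limma) ran from 0.0628 to 0.963 over alternatives other than the turned sign, so it came near a call but was never called. Within Cy3 arrays, chosen after seeing the data, the differences were 0.88 for collagen I, 0.33 for collagen III and -1.22 for fibulin 2. The changes of distance ran from -0.33 to 0.49 (fibronectin less collagen III), from -0.13 to 0.34 (fibronectin less collagen I) and from -0.25 to 0.20 (collagen III less collagen I). The cause of these shifts was not tested.

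Same-numbered arrays of the 2 days did not deviate together (correlation -0.17, 0.01 and -0.27 across features), so the numbers do not pair animals, and the block left 24 features higher and 6 lower, against 111 and 48. It turned contrapsin-like protease inhibitor related protein to -0.87. With it the differences of C1q beta (0.73), C1q C (0.87), the ATPase (-0.71), syndecan 4 (-0.85) and tissue plasminogen activator (-1.11) were not called. With each array left out the contrapsin-like protease inhibitor related protein difference ran from -0.17 to 1.06, syndecan 4 at 4 dpi from -0.075 to 0.24 and the insulin-like growth factor II difference from -0.068 to 0.30 (-0.022 scaled). Among listed clones, the calls at 1 dpi of matrix Gla protein, C1q beta and class III Fc gamma receptor were lost with both times in 1 fit, and those of TIMP-2 and C1q C with scaled arrays. The receptor lost its call at 4 dpi with robust eBayes, and the vitronectin difference was called with a dye term (0.70) and with array weights (0.84). Counts in the difference were 30 and 7 without replicate 1 of 1 dpi, 47 and 15 without replicate 2, 58 and 17 without replicate 4 of 4 dpi, 79 and 22 without its replicate 1, 159 and 91 with array weights, 55 and 18 at an adjusted p of 0.02, and 86 and 26 for features on all 7 arrays. A limit of 0.7 on every array left 112 and 26 at 1 dpi and 35 and 1 at 4 dpi. That limit ended the calls at 1 dpi of matrix Gla protein, prolyl 4-hydroxylase beta, bone morphogenetic protein 2, TIMP-2, C1q beta, C1q C, GABA-A receptor delta, N-copine, acidic calponin and insulin-like growth factor II. At 4 dpi it ended those of osteonectin, myelencephalon specific protease, contrapsin-like protease inhibitor related protein, class III Fc gamma receptor, macrophage expressed gene 1, brain-enriched guanylate kinase-associated protein 1, CDCrel-1A and smooth muscle-associated cell protein 8. No limit gave 283 and 136, and 151 and 67. Without replicate 2, 121 were higher at 1 dpi. Scaling gave 20 lower at 4 dpi, and leaving out its replicate 3 gave 3.

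Turning the sign of the swapped arrays, against the deposited direction, left 0 calls by limma, with 92, 73 and 3 features at an unadjusted p under 0.05 for 1 dpi, 4 dpi and the difference. Fibulin 2 then had 0.12 at 1 dpi and -0.80 at 4 dpi. Collagen I had 0.0039, collagen III -0.071 and fibronectin 0.19 at 4 dpi, and their differences were 0.35, 0.52 and -0.079. Values that changed sign were, at 1 dpi, TIMP-2 (-0.053), cathepsin K (-0.025), contrapsin-like protease inhibitor related protein (-0.73) and macrophage expressed gene 1 (-0.10). At 4 dpi they were osteonectin (-0.12), transforming growth factor beta-2 (-0.34), myelencephalon specific protease (-0.061), C1q beta (-0.62), macrophage expressed gene 1 (-0.045), the ATPase (0.063) and calponin (-0.012). In the difference they were matrix Gla protein (0.082), osteopontin (-0.29), myelencephalon specific protease (-0.28), C1q beta (-0.84), C1q C (-0.10), osteoactivin (-0.24), the ATPase (0.095), brain-enriched guanylate kinase-associated protein 1 (0.13), CDCrel-1A (0.086) and vimentin (-0.0093).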
